A study of Mus musculus with 2 samples.

Results

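Myst2 (now Kat7), Zmynd8, Cbx7 and Hdac2 are 4 genes of chromatin regulators that carried Bcl3 peaks in mouse embryonic stem cells. They were chosen by their names and with their peaks already known, because each was the gene closest to at least 1 Bcl3 peak in the authors' list. They are 4 of 592 genes with such a peak. In that list 6 of 1130 peaks were closest to them, and 7 more named them from farther away, 13 peaks in all. No peak of the list had a false discovery rate below 0.179, and the 6 closest peaks ran from 0.179 to 0.617. Because position, fold enrichment and score of these peaks guided the choice, they are given as a description without a test.

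The study compared 1 library of chromatin pulled down with an antibody to Bcl3 and 1 library of input chromatin, both from the CGR8 mouse embryonic stem cell line. The cells of both groups grew on 0.1% gelatin with 15% knock-out serum replacement and leukemia inhibitory factor at 1000 U/ml, with no genetic change or treatment named in the labels. Nuclei were digested with an enzyme before the pull-down. There were no replicates, the read depth is unknown, and no value of the input library by itself was used. Positions are in mouse build mm9, distances upstream of a start carry a minus sign, and each value belongs to the authors' peak list. A peak list carries no expression level, so the cell type was not checked against marker genes.

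Bcl3 is an atypical IκB protein that works in the nucleus, where it binds the NF-κB subunits p50 and p52 and can activate or repress transcription. The 4 genes encode proteins with different roles on chromatin. Kat7, also called HBO1, is the catalytic subunit of a histone acetyltransferase complex of the MYST family. Zmynd8 and Cbx7 are readers of histone marks, and Hdac2 removes histone acetylation. In embryonic stem cells Cbx7 is the chromodomain subunit of canonical Polycomb repressive complex 1 (PRC1), and Hdac2 works in NuRD, SIN3 and CoREST corepressor complexes.

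Of the 6 closest peaks, 5 had their midpoint in an intron, in Myst2, Zmynd8 and Cbx7, and 1 lay upstream of the start of Hdac2. Over the 623 peaks with a closest transcript, 57.3% were intronic. The list's other 507 peaks had no closest transcript and are not in this share. In the closest transcripts the introns hit were number 2 of Cbx7, number 7 of Myst2 and numbers 10, 10 and 11 of Zmynd8. No intron 1 was among them. For Myst2 and Zmynd8 the wider annotation lists another transcript, in which the numbers may differ. Among all 357 intronic peaks, 135 (37.8%) lay in intron 1 and 79 (22.1%) in intron 7 or later. Intronic peaks lay a median of 23.9 kb downstream of the start, with quartiles of 3.7 and 106.8 kb, and the member peaks fell between those quartiles.

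**Figure D1:**
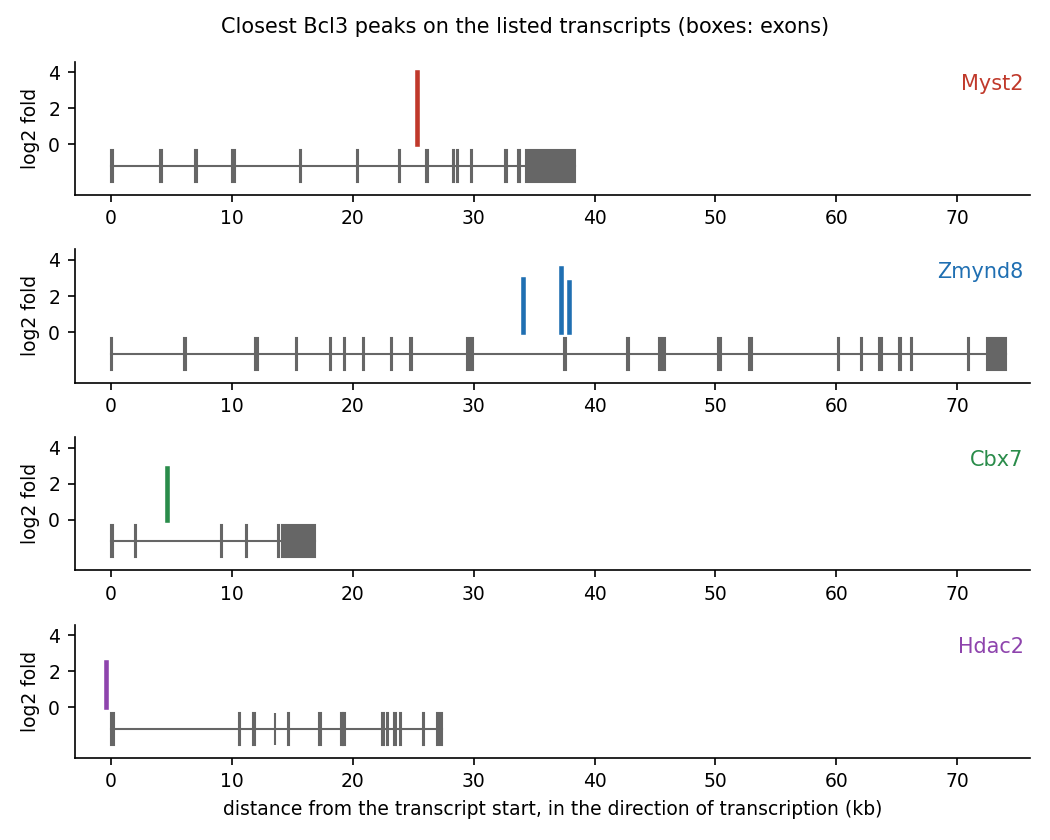
Each row draws 1 transcript from its start at 0 kb in the direction of transcription, with exons as boxes and each closest Bcl3 peak as a bar whose height is the greatest log2 fold enrichment in the peak. The Hdac2 peak stands just before its start, the Cbx7 peak at 4.7 kb, the Myst2 peak at 25.3 kb and the 3 Zmynd8 peaks between 34.1 and 37.8 kb.

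The acetyltransferase gene Myst2 held the peak with the greatest fold enrichment of the whole list. It lay on chromosome 11 at 95146050 to 95146424, was 375 bp long and reached a log2 fold enrichment of 4.02, a 16.2-fold enrichment over a denominator that the header does not name. Its Poisson score, which is the −log10 of the lowest Poisson p-value found within a peak, was 5.36, which ranked 817 of 1130. The peak sat 25.3 kb downstream of the start of Myst2, 66.0% of the way along the listed 38.4 kb transcript of 14 exons. Intron 7 is 2110 bp long, and in the direction of transcription the peak began 1219 bp after exon 7 and ended 516 bp before exon 8. The start of Tac4, another gene listed at this peak, was 23.4 kb away and thus nearer than the Myst2 start. Nearest in rank by fold were the peaks of Nme1 and Dcp1a. Nme1 had a log2 fold enrichment of 3.95 with a Poisson score of 8.48, and Dcp1a had 3.89 with a score of 7.03. Among the 10 peaks with the greatest fold, 8 had a higher Poisson score than the Myst2 peak, and the median score of the 10 was 7.98. The false discovery rate of the Myst2 peak was 0.179, the lowest in the list. Next in Poisson score were a peak of log2 fold 3.34 and a score of 5.37, whose nearest start was that of AI987662, and the peak of Klhl1 with a log2 fold of 2.71 and a score of 5.36.

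A second listed peak of Myst2 was distant. It lay on chromosome 11 at 95394875 to 95395074, −223.5 kb from the Myst2 start and −19.1 kb from the start of Nxph3. Its log2 fold enrichment was 2.96 and its Poisson score 8.52, so the distant peak had the lower fold and the higher score.

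Zmynd8, a reader of acetylated and methylated histones with a bromodomain and a MYND domain, was 1 of 2 genes with 3 closest peaks. The first peak along the gene lay on chromosome 2 at 165649475 to 165649649, in intron 10. Its log2 fold enrichment was 2.97 and its Poisson score 6.93. The second lay at 165646175 to 165646649 and was the longest of the member peaks at 475 bp. It had the greatest log2 fold enrichment of the 3, at 3.55, or 11.7-fold, and a Poisson score of 6.94. The third, at 165645725 to 165645924 in intron 11, had the lowest fold, at 2.77 on the log2 scale, and the highest score, 10.4. The highest fold and the highest score at this gene therefore belonged to different peaks, ranked 68 and 786 of 1130 by fold and 222 and 23 by Poisson score.

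The Zmynd8 peaks at 3.55 and 2.77 stood on either side of exon 11, a 146 bp exon. The peak at 3.55 had its midpoint in intron 10, ran to the end of that intron and reached 13 bp into the exon, with 462 bp in the intron. The peak at 2.77 began 117 bp after the exon. The gap between them was 250 bp, and their midpoints were 587.5 bp apart. The first peak lay 2825 bp farther toward the start of the gene, and all 3 peaks fit in a span of 3.9 kb of a 74.0 kb transcript, between 46.1% and 51.1% of its length. Exon starts in the sheet were read as counted from 0, and the overlap would change by 1 bp if peak starts were counted that way too. The authors' summary sheet classes all 3 as intronic.

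**Figure D2:**
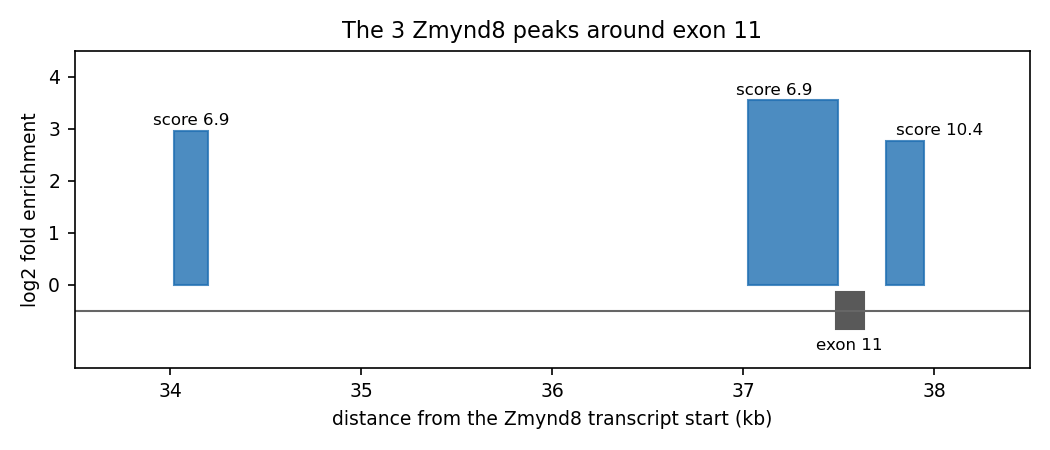
The horizontal axis is the distance from the start of the listed Zmynd8 transcript in kb, the boxes above the line are the peaks with their width to scale and their height equal to the log2 fold enrichment, and the grey box is exon 11. Each number is the Poisson score, which was 10.4 for the peak downstream of exon 11 and 6.9 for the other 2.

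The distance of the Zmynd8 peaks from a start depended on the transcript. The closest-transcript sheet lists a transcript whose start lay 34.1, 37.3 and 37.8 kb from the 3 peaks. The intron and exon numbers and the percentages of length given for Zmynd8 belong to that transcript. The wider annotation lists the gene under its older symbol Prkcbp1, with a transcript that starts farther upstream, and gives 60.6, 63.8 and 64.4 kb. No other gene start was near. The closest one of another gene, that of Eya2 or Ncoa3, lay 165.0 kb or more from each of the 3. A further peak listed for Prkcbp1 lay at −800.3 kb, inside BC067047, where the log2 fold enrichment was 2.96 and the score 5.34.

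The spacing at Zmynd8 was set beside that of other genes with repeated peaks. Of the 592 genes closest to a peak, 29 had 2 or more, which is 4.9%, and 1 of the 4 genes described here, Zmynd8, was among them. In the other 28 genes the shortest gap between neighbouring peaks ran from 175 bp to 1000.4 kb with a median of 49.0 kb. Only 1 of the 28, Lifr, had a gap of at most 250 bp, and 9 had all their peaks inside a span no longer than that of Zmynd8. Lifr was named after its value was seen. Csrnp1, the other gene with 3 peaks, encodes a nuclear protein and had its peaks at −262, 1938 and 2788 bp from the start. In that order the log2 fold enrichments were 3.54, 3.61 and 3.58, a narrower range than at Zmynd8, and the Poisson scores were 5.92, 11.6 and 9.44. When peaks of 1 gene within 500 bp were merged, Zmynd8 kept 2 separate peaks and 25 genes had 2 or more.

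Nearest in rank to the 3 Zmynd8 peaks by fold was a mixed set. Beside the peak of log2 fold 3.55 stood a Csrnp1 peak (3.54, Poisson score 5.92) and a peak nearest to the start of Fcrl5 (3.55, score 7.26). Beside the peak of 2.97 stood the distant Myst2 peak already described and a peak of 2.97 with a score of 5.31, at which no gene was listed. Beside the peak of 2.77 stood the Lama3 peak and a peak nearest to Ppp3ca, and the score was 10.4 at Zmynd8, against 5.15 and 5.46 at these. By Poisson score the Zmynd8 peak of 10.4 was tied at rank 23 with the peaks of Nlrp12 (log2 fold 2.81) and Cmas (2.57). The other Zmynd8 peaks stood beside those of Kpna2 (3.32), Gpr44 (2.63) and Cdca7l (2.94).

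Cbx7, the Polycomb reader of trimethylated histone H3, had its closest peak near its start. That peak lay on chromosome 15 at 79758250 to 79758574, in intron 2 of a transcript of 7 exons, 4663 bp downstream of the start. Intron 2 is 7049 bp long, and the peak began 2441 bp after exon 2. The log2 fold enrichment was 2.90, or 7.44-fold, and ranked 610. The Poisson score was 8.34 and ranked 77, and the false discovery rate was 0.324. Of the 50 peaks next in rank by fold, 25 to either side, 5 had a higher Poisson score, and their median was 5.65. Its neighbours by fold were a peak nearest to Ankrd56 (log2 fold 2.90, score 10.7) and one nearest to Mospd2 (2.89, score 5.55). Its neighbours by score were a peak of log2 fold 3.02 nearest to Lcorl and the Rc3h2 peak of 3.09.

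The Cbx7 locus held 2 more peaks. The one at 79801400 to 79801599 lay between genes, −38.4 kb from the Cbx7 start and 43.7 kb from that of Pdgfb, which encodes a platelet-derived growth factor chain. It had a log2 fold enrichment of 2.82 and a Poisson score of 18.2, the fourth highest in the list. The one at 79841000 to 79841149 lay inside Pdgfb, 4.2 kb from the start of that gene and −78.0 kb from that of Cbx7, at 2.74 with a score of 5.04. The log2 fold enrichments of the 3 peaks lay between 2.74 and 2.90, while by score they ranked 77, 4 and 1082 in the order of their distance from Cbx7. At the peak in Cbx7, 20 other genes were listed, and the nearest of their starts was that of Apobec3, 35.5 kb away. Cbx6, another Polycomb gene, was among the 20 and lay farther off, with the peak at −93.6 kb from its start.

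**Figure D3:**
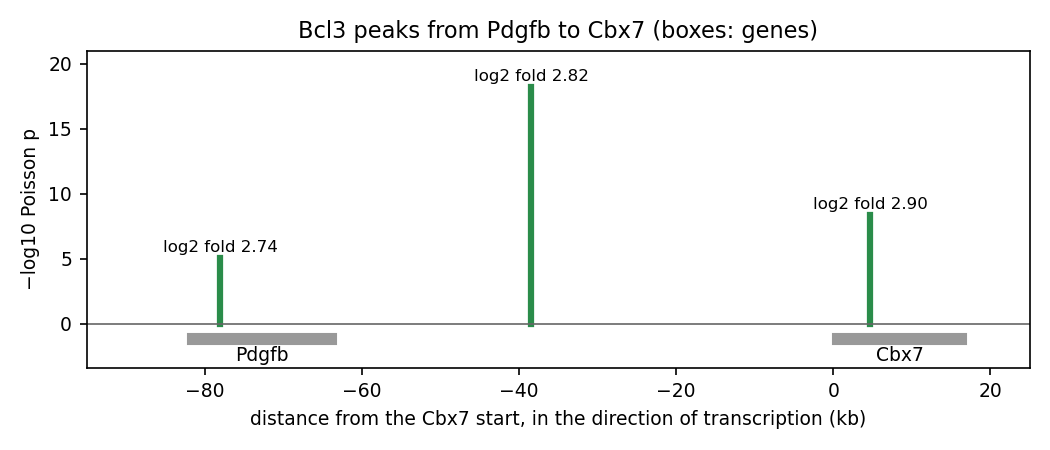
The horizontal axis is the distance from the Cbx7 start in kb, positive in the direction of transcription, the bars are the 3 listed peaks with their Poisson score as height, and the grey boxes are the genes Cbx7 and Pdgfb. The middle peak, outside both genes, has the highest score, 18.2, although the log2 fold enrichments of the 3 lie between 2.74 and 2.90.

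Stretches with several peaks were rare in the list. A peak with 2 or more other peaks within 100 kb of it was found 27 times, which is 2.39% of the list, and 993 peaks (87.9%) had no other peak within that distance. The 27 peaks fell into 10 stretches. The 3 closest Zmynd8 peaks formed one of them and the 3 Cbx7 peaks another, 6 of the 27 peaks. The Myst2 and Hdac2 peaks at these genes had no other peak within 100 kb.

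Hdac2, a class I histone deacetylase, differed from the other 3 genes in having its peak at its start. The peak lay on chromosome 10 at 36693875 to 36694024, with its midpoint at −400 bp from the start and its near edge 326 bp upstream. It was 150 bp long. Its log2 fold enrichment was 2.50, or 5.65-fold, which ranked 1128 of 1130. Its Poisson score was 12.3, which ranked 14. Among the 56 peaks whose midpoint lay within 1 kb upstream of the start of their closest transcript, the Hdac2 peak had the lowest fold and the highest score. The medians of the 56 were 2.94 for the log2 fold enrichment and 5.83 for the score. Its false discovery rate was 0.617. The neighbours by fold had scores of 5.11 at the Tbc1d13 peak and 5.56 at a peak nearest to BC062127. The neighbours by score were peaks nearest to Ube3a (12.5) and Amd1 (12.1), with log2 fold enrichments of 2.55 and 2.72.

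No other gene start was near the Hdac2 peak, since that of Marcks, the nearest of another gene, was 164.8 kb away. The other 3 peaks listed for Hdac2 lay at 607.2, −688.6 and −756.4 kb from the start, all between genes. They had log2 fold enrichments of 2.63, 3.41 and 2.97 and Poisson scores of 7.52, 6.26 and 6.77. Only 3 genes were listed at each of the 4 Hdac2 peaks, against 16 at the Zmynd8 peaks in the gene and 21 at the closest Myst2 and Cbx7 peaks.

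The bases before the Hdac2 start are shown because only this one of the 4 genes had a listed peak within 1 kb upstream of its start. The false discovery rate of that peak was 0.617, so the listing does not establish Bcl3 at the promoter. They come from RefSeq on build GRCm38.p6 at chr10:36974294-36974543, plus strand, and are the 250 bases before the start in that table. The peak itself lay farther upstream in mm9, and the bases under it were not used here. Capitals mark CG dinucleotides.

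Hdac2 upstream: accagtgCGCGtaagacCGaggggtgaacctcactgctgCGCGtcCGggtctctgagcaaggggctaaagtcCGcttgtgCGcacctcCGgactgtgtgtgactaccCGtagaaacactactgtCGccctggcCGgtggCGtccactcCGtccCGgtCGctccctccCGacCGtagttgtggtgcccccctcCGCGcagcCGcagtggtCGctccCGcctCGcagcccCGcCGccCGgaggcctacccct

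The stretch held 27 CG dinucleotides and 68.8% G and C. The medians over 32851 such windows in the RefSeq table were 6 CG dinucleotides and 52.4% G and C, and 8.6% of the windows held 27 or more. The Cbx7 window held 23 and 64.8%, and that of Myst2 held 8 and 50.8%. Those of Zmynd8 held 4 to 11 and 47.2% to 62.0%. The κB motif, to which NF-κB dimers bind, was searched on both strands. It was not in these letters or in the windows of Myst2, Zmynd8 and Cbx7, and 7.25% of all windows held it. A motif match or its absence in this window is a description of the letters and does not speak of Bcl3 or NF-κB binding.

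Across the 6 closest peaks, fold enrichment and Poisson score ran in nearly opposite orders. By fold the order was Myst2, Zmynd8 at 3.55, Zmynd8 at 2.97, Cbx7, Zmynd8 at 2.77 and Hdac2. By score it was Hdac2 (12.3), Zmynd8 (10.4), Cbx7 (8.34), Zmynd8 (6.94), Zmynd8 (6.93) and Myst2 (5.36). Spearman's rho was −0.943 over these 6 peaks, of which 3 share a gene, and −0.012 over all 1130 peaks. The 6 peaks come from 1 library and were picked with both values in view, so the rho is a description. Over the 7 listed peaks that were not closest to the 4 genes it was −0.036. Over the whole list fold enrichment went with peak length (rho 0.747) and the score did not (rho 0.044). The Myst2 peak was 375 bp long and the Hdac2 peak 150 bp.

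**Figure D4:**
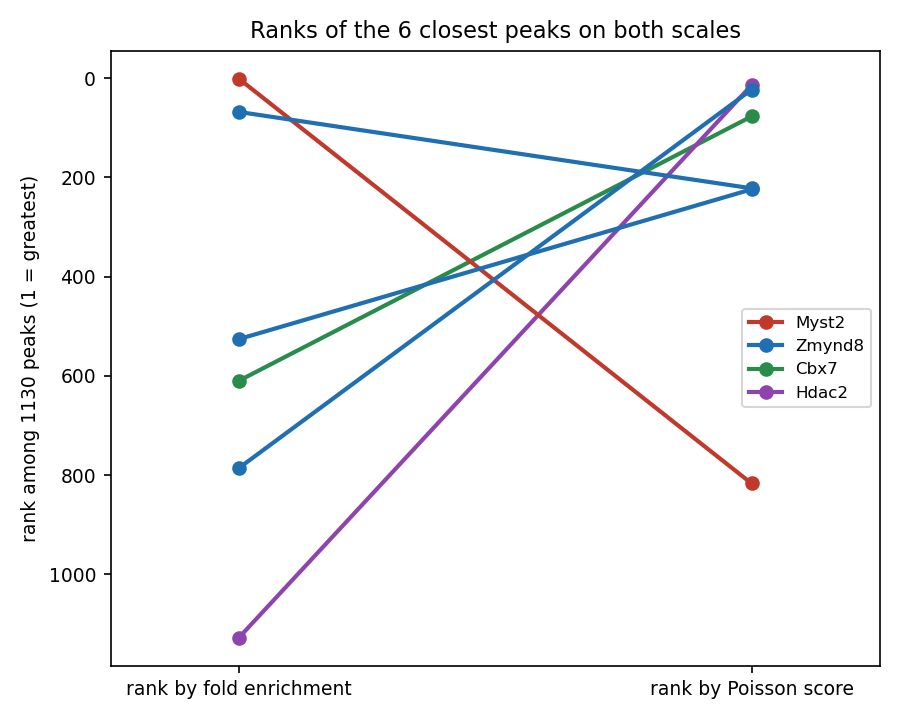
Each line joins the rank of 1 closest peak by fold enrichment on the left to its rank by Poisson score on the right, among 1130 peaks with 1 as the greatest. The Myst2 line falls from the top of the fold ranks to 817, and the Hdac2 line climbs from 1128 to 14.

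As a set, the 6 peaks had the list's median fold and a higher median score. They were picked with both values in view and 3 of them share the gene Zmynd8, so this is a description. Their median log2 fold enrichment was 2.93, and that of the list was 2.93. Their median Poisson score was 7.64, against 5.80 for the list, and 5 of the 6 lay above the list's median. With the distant peaks included, 10 of 13 did. A score over 10 was reached by 2 of the 6, in Zmynd8 and at Hdac2, and by 2.57% of the list overall. The intergenic Cbx7 peak, not among the 6, scored 18.2. The lowest false discovery rate, 0.179, was held by 2 of the 6, Myst2 and Zmynd8, and by 21.1% of the list. That rate never fell down the ranking by fold, and the Hdac2 peak, near the end of it, had a rate of 0.617. It was 0.296 and 0.402 for the other Zmynd8 peaks.

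**Figure D5:**
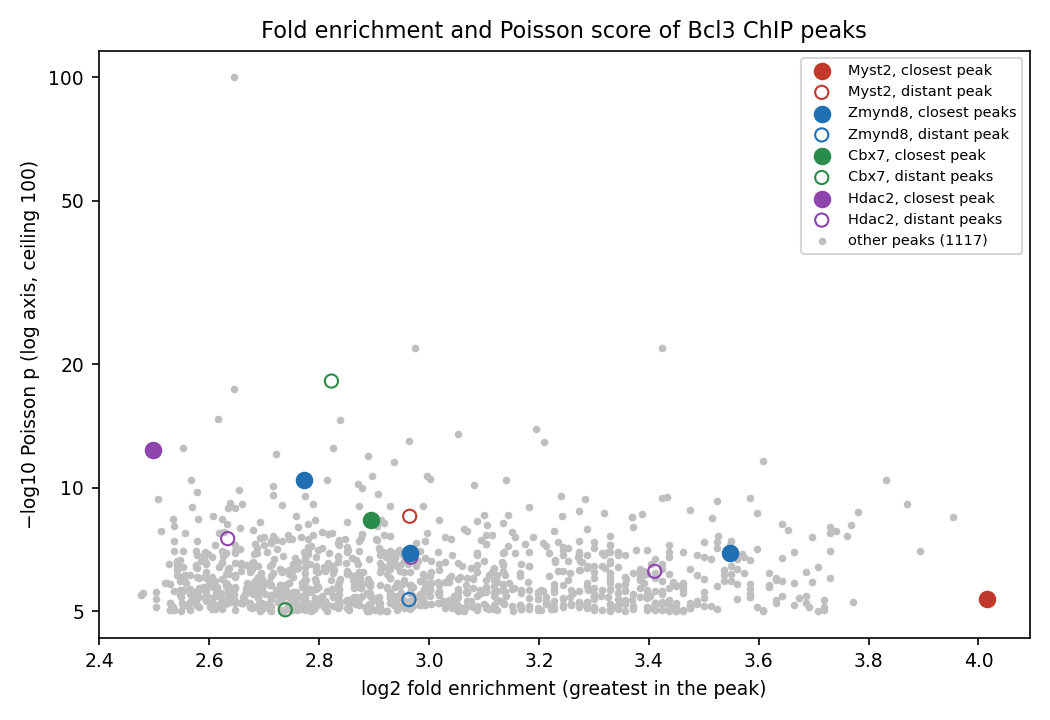
Each point is 1 peak, with its greatest log2 fold enrichment across and its Poisson score on a log axis upward, and grey points are the 1117 peaks not listed for the 4 genes. Filled points are the closest peaks of the 4 genes, which run from Hdac2 at 2.50 and 12.3 to Myst2 at 4.02 and 5.36, and open points are their distant peaks.

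Within the peaks, the site of greatest fold and the site of the smallest Poisson p-value were close. They lay 0 to 75 bp apart in the 6 closest peaks, with a median of 50 bp, and the median over the list was also 50 bp. In the Zmynd8 peak of 2.97 they coincided. That peak was also 1 of 117 whose listed boundaries were in reversed order, by 140 bp here, and its start, end and midpoint were used instead.

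Other chromatin genes were counted to see how far the 4 stand among their partners. Of 74 genes in 6 lists of complexes related to them, 8 were closest to a peak, 4 of them the genes described here, against 2.52% of 21900 protein-coding genes. The 4 were known to have peaks when the lists were drawn up, so they are set apart from the other 4 of 70 genes. The lists themselves were chosen with earlier results of these data known, so that count is also only a description. These were Tbl1xr1, Rbbp7, Kdm2b and Pcgf3. Of the MYST and HBO1 list, 1 of 14 genes had a closest peak, namely Myst2. The HBO1 partners Brpf1, Brpf3, Brd1, Ing4, Ing5, Meaf6 and the Jade genes had none. Of the ZMYND list, Zmynd8 was 1 of 6, and Zmynd11 and Kdm5c had none. Of the class I deacetylases, Hdac2 was 1 of 4, and Hdac1, Hdac3 and Hdac8 had none.

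The PRC1 list held 3 of 20 genes, Cbx7, Kdm2b and Pcgf3. Kdm2b, which recruits a variant PRC1 to unmethylated CpG islands, had its peak in intron 6, 30.4 kb downstream of the start. There the log2 fold enrichment was 2.74 and the score 5.22. Pcgf3, a subunit of another variant PRC1, had its peak in intron 1 of the closest transcript, 0.8 kb downstream of the start, at 2.68 with a score of 6.56. The wider annotation puts that peak in the 5′ UTR of Pcgf3. The PRC2 list held 1 of 11, Rbbp7, a histone-binding subunit shared by PRC2 and NuRD, with a peak at −554 bp from its start, at 2.85 with a score of 5.22. The corepressor list held 1 of 19, Tbl1xr1, a subunit of the NCoR complex. Each gene was counted in 1 list only. Hdac2 and Rbbp7, which also work in corepressor complexes, were thus counted in other lists. The Tbl1xr1 peak lay at −224 bp from the start, at 3.69 with a score of 5.45. With Hdac2 and Rbbp7, Tbl1xr1 was one of 3 genes of the lists with a peak within 1 kb upstream of the start. The scores of these other 4 genes ran from 5.22 to 6.56. The Myst2 score of 5.36 lay within that range. The closest peaks of Zmynd8 (6.93 to 10.4), Cbx7 (8.34) and Hdac2 (12.3), picked with their scores known, lay above it.

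Other definitions of a gene with a peak gave other counts. With a gene start within 5 kb of a peak, 5 of 74 genes counted, against 1.26% of protein-coding genes. Among the 5 were Cbx7 and Hdac2, already known to have peaks. The others were Tbl1xr1, Rbbp7 and Pcgf3, out of 70 genes in lists that were also chosen with earlier results known. In the wider annotation at any distance 39 of 74 did, the 4 members among them, against 40.4% of protein-coding genes.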

How the data were processed

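Chromatin immunoprecipitation with sequencing was done by the authors in CGR8 cells, with 1 Bcl3 library and 1 input library. The deposited peak workbook was used, and the submitters' processing notes name build mm9. How reads were aligned, how peaks were called and at which thresholds is not given in the sources used here. For every peak the sheet holds, per the file headers, the greatest log2 fold change (no denominator named), the greatest T statistic, a score not used here, the −log10 of the smallest Poisson p-value, with 100 as its highest value, and a false discovery rate, read here as a q-value of the authors. The read depth is unknown, and all values come from 1 Bcl3 library. Whether the input library entered them is not known.

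Peaks were joined to the wider annotation and the closest-transcript sheet by rank. Gene names were matched to a RefSeq table of GRCm38.p6 (623 of 623 closest entries and 14536 of 14602 wider entries), used for names and biotypes only. Introns were counted from the transcript's 5′ end and assigned from peak midpoints. Promoter bases came from RefSeq (GRCm38.p6). Ranks, counts, medians and Spearman's rho were computed in Python 3.11.15 with pandas 2.3.3 and scipy 1.17.1, after the helper functions had been checked on simulated loci. No test was run, because there are no replicates and the members were chosen from these values.

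The members and the gene lists were chosen with earlier results of these data known. The text names the 4 genes with all their peaks, list genes closest to a peak, genes with 3 or more closest peaks, the nearest gene listed beside a member, and the 2 peaks next in rank on each scale. The alternatives were other rank backgrounds, summits, another transcript, merged peaks, other gene assignments, and subsets of peaks by score or false discovery rate.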

Additional observations from a re-analysis of the deposited data

How the results depend on the processing

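Ranks, distances to a start, repeated peaks and gene counts were recomputed under other settings, and the other values were not. Counted as closest genes, 8 of 74 list genes had a peak, the 4 members among them. With every gene of the wider annotation 39 list genes counted, again with the 4 members. With a start within 5 kb of a peak, 5 list genes did, 2 of them members (Cbx7 and Hdac2). Among peaks at the lowest false discovery rate, 3 list genes did, against 0.621% of protein-coding genes. Of these 3, 2 were members (Myst2 and Zmynd8), and only Tbl1xr1 was not. Among peaks above the median Poisson score, 4 list genes did, against 1.31%. Of these 4, 3 were members, and only Pcgf3 was not. The members were known to have peaks, so their part of each count was fixed by the choice. Each of these settings counts other or fewer peaks by construction. Merging peaks within 500 or 1000 bp left 2 separate peaks at Zmynd8, and 25 or 23 genes with repeated peaks against 29. Measured from the summit, which lies within its peak by construction, the distance was 25267 bp at Myst2, 4673 bp at Cbx7 and −417 bp at Hdac2. From the closest transcript the 3 Zmynd8 distances were 34.1, 37.3 and 37.8 kb, against 60.6, 63.8 and 64.4 kb in the wider annotation, because the transcripts start at different places. Leaving out the ceiling of the Poisson score removed 1 peak of 1130, and a minimum score of 5 removed 0 because the lowest was 5.004, so neither setting could move the shares of peaks with a higher score by much and neither shows stability. The share with a greater fold than the Zmynd8 peak of 3.55 was 7.67% among peaks inside genes and 28.2% among those at the lowest rate, against 5.93% of all peaks. No paired analysis was possible because each group has 1 library. With 1 library no replicate could be left out, and the depth is unknown, so no spread between libraries stands behind any value.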
